A study of Mus musculus with 4 samples.

Results

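Ifit1, Ifit2, Ifit3, Rsad2 and Cmpk2 are interferon-induced antiviral genes of the mouse, and their RNA was followed here in activated CD4+ T cells exposed to interferon alpha (IFNa). Each was taken from the 1 array row whose annotated symbol is that gene alone, so that 5 genes of the 19752 with a row of their own are described. The cells came from spleens of male C57BL/6 mice, 6 weeks old, a common inbred strain. They had been enriched by negative selection, which removes the other cell types, and beads against CD3 and CD28 had then activated them over 48 h. The groups were activated cells given no IFNa (baseline, 2 arrays), activated cells cultured with IFNa at 100 U/ml for 2 h (1 array) and the same for 8 h (1 array), and RNA of each sample was read on a whole-transcript Affymetrix array. For both IFNa samples the preparation note writes of IFNa with or without Janus kinase inhibitors, while all other labels name IFNa alone. Nothing in the labels ties the 2 baseline samples to different mice or cultures, so p-values measure the spread between those arrays only, and that spread may be technical. Each IFNa time had a single array whose variation was taken to equal that of the baseline arrays. Untreated cells kept for the same 2 h or 8 h were not analysed here, and an effect of IFNa and one of culture time cannot be told apart.

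Type I interferons bind a receptor of the chains Ifnar1 and Ifnar2, and the kinases Jak1 and Tyk2 then activate the transcription factor complex ISGF3, which includes Stat2 and Irf9. ISGF3 binds a DNA element with a pair of GAAA cores, the interferon-stimulated response element, in the promoters of its target genes. The Ifit proteins are built of tetratricopeptide repeats. Ifit1 binds viral RNA whose cap lacks 2′-O-methylation and blocks its translation, and among the human proteins IFIT2 binds AU-rich RNA and IFIT3 stabilises IFIT1. Rsad2 encodes viperin, a radical S-adenosylmethionine (SAM) enzyme that turns cytidine triphosphate into ddhCTP, a nucleotide that ends the RNA chains of viral polymerases. Cmpk2 encodes a mitochondrial nucleoside monophosphate kinase, and lies beside Rsad2 in the genome.

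The Ifit genes lie together on chromosome 19 and the other pair on chromosome 12 (GRCm38.p6). Ifit2 spans chr19:34550550-34576534, Ifit3 chr19:34583119-34588982 and Ifit1 chr19:34640889-34650009, the related genes Ifit3b and Ifit1bl2 lie between Ifit3 and Ifit1, and the annotated span of a further relative, Ifit1bl1, reaches past Ifit1. Rsad2 spans chr12:26442743-26456452 on the minus strand and Cmpk2 chr12:26469117-26479837 on the plus strand, so that the pair is divergent with 12664 bases between them. All 5 genes had a promoter window in RefSeq (build GRCm38.p6), which runs from 250 bases before a transcript start to 50 after it. Each window was searched for the response element core GAAANNGAAA, read as TTTCNNTTTC on the other strand. The bases before the start are printed 5′ to 3′ on the gene's own strand because they show which of the genes carry the core, and capitals mark each match.
Ifit1, chr19:34640739-34640888, plus strand: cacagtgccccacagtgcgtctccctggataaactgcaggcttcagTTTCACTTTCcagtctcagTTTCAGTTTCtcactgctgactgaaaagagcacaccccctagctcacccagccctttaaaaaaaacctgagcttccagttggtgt
Ifit3, chr19:34583363-34583528, plus strand: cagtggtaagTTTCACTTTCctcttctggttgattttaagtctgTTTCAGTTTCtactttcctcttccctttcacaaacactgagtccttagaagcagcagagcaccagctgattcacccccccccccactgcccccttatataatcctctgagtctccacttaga
Rsad2, chr12:26456453-26456602, minus strand: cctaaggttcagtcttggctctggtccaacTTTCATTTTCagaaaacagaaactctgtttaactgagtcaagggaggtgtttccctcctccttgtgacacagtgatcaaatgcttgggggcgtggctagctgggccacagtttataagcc
Cmpk2, chr12:26469065-26469214, plus strand: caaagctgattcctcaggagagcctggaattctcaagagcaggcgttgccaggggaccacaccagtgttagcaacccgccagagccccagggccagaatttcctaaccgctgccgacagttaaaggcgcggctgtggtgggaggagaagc
Ifit2, chr19:34550544-34550693, plus strand: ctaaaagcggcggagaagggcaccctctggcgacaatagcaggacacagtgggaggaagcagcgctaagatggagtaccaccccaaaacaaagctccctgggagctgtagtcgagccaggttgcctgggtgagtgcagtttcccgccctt

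The Ifit1 window held 2 matches, which begin 104 and 85 bases before the start. The Ifit3 window also held 2, at 156 and 122 bases, and their letters, TTTCACTTTC and TTTCAGTTTC, are those of the Ifit1 pair. The Rsad2 window held 1 match, TTTCATTTTC, at 120 bases. Neither the Cmpk2 window nor either of the 2 Ifit2 windows held these letters. Both Ifit2 windows lie at the 5′ edge of an annotated span of 25985 bases, and the 25397 bases of it beyond them were not searched. A core with a wider gap, GAAANNNGAAA, was found once in the Ifit3 window, where it overlaps the match at 122 bases, and once in the Rsad2 window, against 2.75% of all windows. The palindrome TTCNNNGAA, another element of cytokine-responsive promoters, was found once in an Ifit2 window and in no window of the other 4 genes, against 8.3% of all windows. Of all 32851 windows 3.44% held at least 1 match to GAAANNGAAA and 0.225% held 2 or more. A window covers only annotated starts, and a match is a description of the letters, not a bound site.

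Intensities are the authors' RMA values, and probes of different genes share no scale, so each gene is compared only with itself. Places among all rows are given because they decided which genes were tested. Ifit2 lay at the 72.5th and 70.4th percentile of all rows on the baseline arrays and Ifit1 at the 58.4th and 56.0th. Cmpk2 (48.4 on both), Ifit3 (44.8 and 41.7) and Rsad2 (36.7 and 36.2) were below the median of all rows on both baseline arrays. They passed the filter on dim rows, which asked for a level above the median on at least 1 array, only through their IFNa arrays, and no count over the 5 is therefore taken as support. Since RMA values retain unspecific signal, the fold of a dim row can be too small. All 5 genes were lower on baseline 2 than on baseline 1, by 0.30 for Ifit3, 0.20 for Rsad2, 0.18 for Ifit1, 0.09 for Cmpk2 and 0.03 for Ifit2 on the log2 scale, while the median of all tested genes was 0.10 higher.

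**Figure D1:**
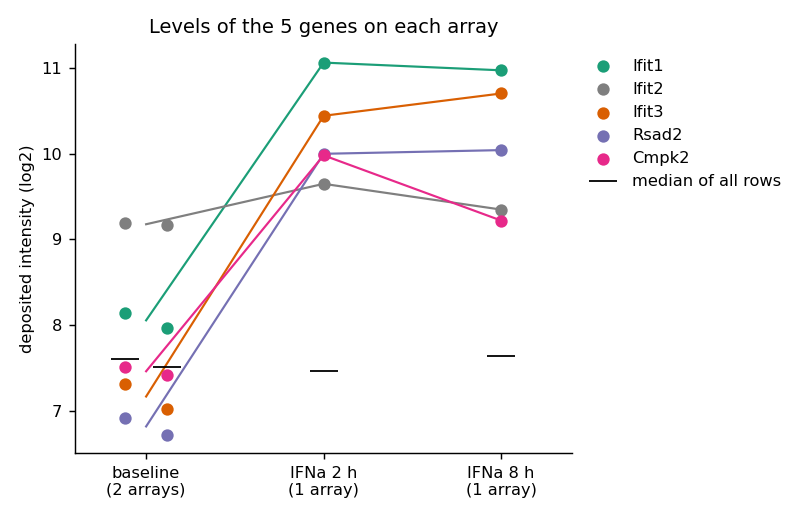
Deposited intensity (log2) of Ifit1, Ifit2, Ifit3, Rsad2 and Cmpk2 on the 2 baseline arrays, the array at 2 h of IFNa and the array at 8 h. Each point is 1 array, lines join the baseline mean to the later arrays, and black dashes mark the median of all rows. Ifit1, Ifit3, Rsad2 and Cmpk2 lie apart from their baseline points at both times, whereas the Ifit2 points span only 9.16 to 9.65.

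Ifit3 had the largest change of the 5 genes at both times. Its intensity was 160 and 130 on the baseline arrays, 1389 on the 2 h array and 1664 on the 8 h array, or 7.32, 7.02, 10.44 and 10.70 on the log2 scale. Both IFNa arrays were far above both baseline arrays, and the 8 h array was the highest. Ifit3 rose 9.65-fold at 2 h (log2 difference 3.27, SE 0.22, limma adjusted p = 0.000459) and 11.6-fold at 8 h (3.53, SE 0.22, adjusted p = 0.00033). With baseline levels of 7.17 ± 0.21 (SD, n = 2), it ranked 2nd among 10699 tested genes at both times by size of the rise.

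Ifit1 also rose at both times. Its intensity was 283 and 251 before IFNa, 2131 at 2 h and 2011 at 8 h (log2 8.14, 7.97, 11.06 and 10.97). The 2 IFNa arrays lay close together and above both baseline arrays. Ifit1 rose 8.01-fold at 2 h (log2 difference 3.001, SE 0.21, limma adjusted p = 0.000459) and 7.55-fold at 8 h (2.92, SE 0.21, adjusted p = 0.000494), ranking 7th and 10th of the tested genes.

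Ifit2 moved little. Its intensity was 584 and 573 before IFNa, 802 at 2 h and 651 at 8 h (log2 9.19, 9.16, 9.65 and 9.35). Both IFNa arrays were above both baseline arrays, but the difference did not pass the test at 2 h (1.39-fold, log2 0.47, SE 0.20, limma adjusted p = 0.406) or at 8 h (1.13-fold, log2 0.17, SE 0.20, adjusted p = 0.628). Its 95% interval at 2 h, 0.01 to 0.93, lay below that of Ifit1 (2.53 to 3.48) and that of Ifit3 (2.77 to 3.77). At 8 h the interval of Ifit2 ran from −0.29 to 0.63, below those of Ifit1 (2.44 to 3.39) and Ifit3 (3.03 to 4.03). In the order of all tested genes Ifit2 ranked 1217th at 2 h and 2121st at 8 h. The sources used here do not give where the probes of its row lie within the gene.

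Rsad2 rose at both times by similar amounts. Its intensity was 121 and 106 before IFNa, 1022 at 2 h and 1055 at 8 h (log2 6.92, 6.72, 9.997 and 10.04). The IFNa arrays were nearly equal and lay above both baseline arrays. Rsad2 rose 9.04-fold at 2 h (log2 difference 3.18, SE 0.21, limma adjusted p = 0.000459) and 9.34-fold at 8 h (3.22, SE 0.21, adjusted p = 0.000371). It ranked 4th and 6th.

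Cmpk2 rose at both times, with a smaller value at 8 h than at 2 h. Its intensity was 182 and 171 before IFNa, 1010 at 2 h and 596 at 8 h (log2 7.51, 7.42, 9.98 and 9.22). Cmpk2 rose 5.72-fold at 2 h (log2 difference 2.52, SE 0.20, limma adjusted p = 0.000902) and 3.38-fold at 8 h (1.76, SE 0.20, adjusted p = 0.00451), ranking 13th and 25th. Its 8 h array stood between the 2 h array and the baseline arrays.

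**Figure D2:**
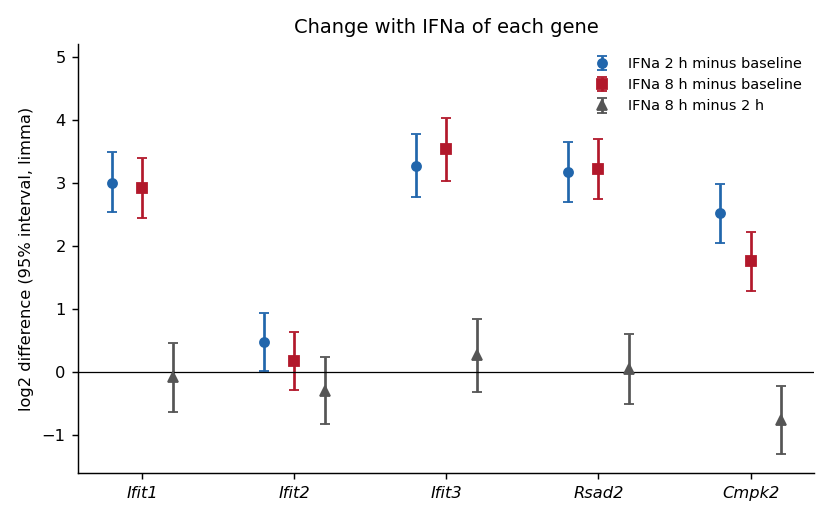
Log2 differences of IFNa 2 h minus baseline, IFNa 8 h minus baseline and IFNa 8 h minus 2 h for the 5 genes, with 95% intervals of the limma model as bars. For Ifit1, Ifit3, Rsad2 and Cmpk2 the intervals of both IFNa times lie above 1, and for Ifit2 they lie below 1.

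In all, 4 of the 5 genes were called higher at 2 h, beside 1.09% of all tested genes called higher, and 4 at 8 h, beside 0.654%. None was called lower, beside 0.00935% at 2 h and 3.35% at 8 h. Ifit1, Ifit3, Rsad2 and Cmpk2 were also at least 2-fold higher at both times, beside 1.77% of tested genes at 2 h and 0.57% at 8 h. The median log2 difference of the 5 genes was 3.001 at 2 h, where that of all tested genes was 0.06, and 2.92 at 8 h, where it was −0.16. Both comparisons use the same baseline arrays. With no filter on dim rows, where 19752 genes were tested, Ifit1, Ifit3, Rsad2 and Cmpk2 were again called at both times, with limma adjusted p from 0.00112 to 0.00222 at 2 h and from 0.000806 to 0.0108 at 8 h. Where every row of the array was tested, 24922 in all, limma called no row at either time, among these genes or others, although 1141 rows at 2 h and 2883 at 8 h had an unadjusted p under 0.05. The adjusted p of these 4 genes then ran from 0.169 to 0.212 at 2 h and from 0.153 to 0.249 at 8 h.

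The comparison of 8 h with 2 h asks whether the early level was held, and no gene of the 5 passed the test there, beside 10.8% of tested genes called lower and 1.46% called higher. On the log2 scale Ifit1 differed by −0.08 (95% interval −0.63 to 0.46) and Ifit2 by −0.30 (−0.83 to 0.23), both of which turned positive after quantile normalization (0.17 and 0.13), which sets all arrays to 1 distribution. Rsad2 differed by 0.05 (−0.51 to 0.60), which became −0.13 once each array was centred on its median, and Ifit3 by 0.26 (−0.32 to 0.84). Each of these intervals includes 0, and also the median of all tested genes, −0.25. Cmpk2 differed by −0.76 (95% interval −1.30 to −0.23, limma adjusted p = 0.0632), or 1.69-fold lower at 8 h, which did not pass the test, and its interval also includes −0.25. With centred arrays that difference became −0.94 and was called (limma adjusted p = 0.0291), and after quantile normalization it was −0.33 with an adjusted p of 0.326.

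The adjacent genes Rsad2 and Cmpk2 changed unequally. The log2 ratio of Rsad2 to Cmpk2 on an array, relative to its baseline mean, was 0.05 and −0.05 before IFNa, 0.66 at 2 h and 1.47 at 8 h. Both IFNa arrays lay outside the span of the baseline arrays, and the ratio was higher at 8 h than at 2 h by 0.81. For Ifit3 over Ifit1 the same measure was 0.06 and −0.06 before IFNa, 0.27 at 2 h and 0.62 at 8 h, a smaller departure. For Ifit1 over Ifit2 it was 0.08 and −0.08 before IFNa, 2.53 at 2 h and 2.75 at 8 h. These ratios were not tested, and they show unequal change without saying which gene of a pair moved. Centring an array adds the same amount to both genes of a pair and leaves the ratio as it is.

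**Figure D3:**
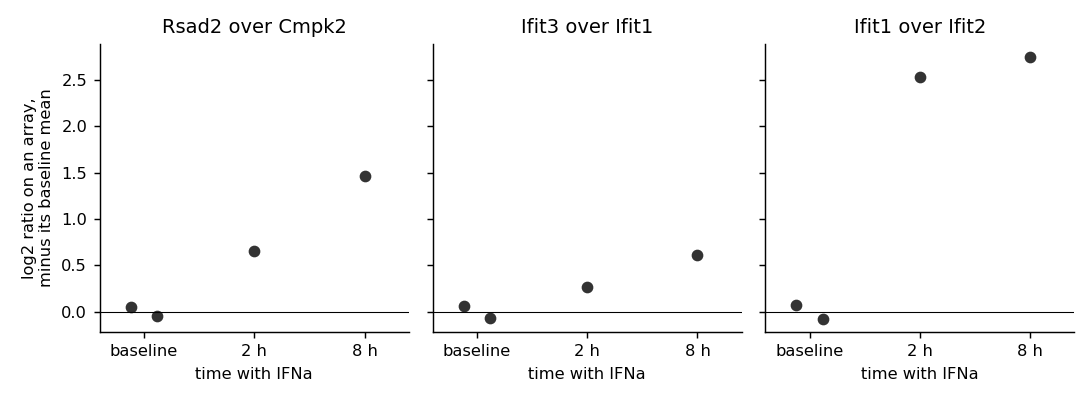
Log2 ratio of Rsad2 over Cmpk2, Ifit3 over Ifit1 and Ifit1 over Ifit2 on each array, minus the mean of the 2 baseline arrays, against time with IFNa. The baseline points of all 3 pairs lie within 0.1 of 0, and Rsad2 over Cmpk2 stands at 0.66 at 2 h and 1.47 at 8 h.

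Of the other Ifit genes, Ifit3b and Ifit1bl2 had a row, and Ifit1bl1 had no row that named it alone. Ifit3b is a near copy of Ifit3, and 258 of 260 aligned bases of their promoter windows were identical, including both core matches. Its row was dim, with intensities of 35.4 and 25.9 before IFNa, 122 at 2 h and 64.1 at 8 h, below the median of all rows on every array. Its log2 difference was 2.01 at 2 h and 1.08 at 8 h. With no filter on dim rows the first was called (limma adjusted p = 0.014) and the second was not (adjusted p = 0.101). Signal of Ifit3 and Ifit3b may be shared between their rows, since the transcripts are alike, and each of the values is uncertain to that extent.

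The annotated spans of Ifit1bl2 and Ifit1, which lie on opposite strands, have 61 bases between them. The promoter windows of these genes share 245 bases, so the 2 matches printed for Ifit1 are also those of the Ifit1bl2 window, read from the other side. The Ifit1bl2 row had intensities of 77.8 and 81.2 before IFNa, 121 at 2 h and 114 at 8 h. Its log2 differences were 0.61 and 0.52, which with no filter were not called (limma adjusted p = 0.555 and 0.281). Both IFNa arrays exceeded both baseline arrays, but the row was under the median of all rows on each array.

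The genes that flank these blocks are given for their values. The 3 nearest protein-coding genes on each side of the Ifit cluster are Fas, a death receptor, Ch25h, which makes 25-hydroxycholesterol, the lysosomal lipase gene Lipa, Slc16a12, Pank1 and the kinesin gene Kif20b. Only Fas, Lipa and Kif20b were bright enough to be tested, and the log2 differences of all 6 ran from −0.44 to 0.33 at 2 h and from −0.78 to 0.30 at 8 h. Lipa, 23075 bases from Ifit2, stood at 0.14 at 2 h and −0.34 at 8 h. Around Rsad2 and Cmpk2 the neighbours Kidins220, Id2, Rnf144a, Sox11, Dcdc2c and Allc ran from −0.22 to 0.22 at 2 h and from −0.30 to 0.42 at 8 h, and 3 of these 6 were tested. Rnf144a, a ubiquitin ligase gene 27423 bases from Rsad2, stood at −0.22 and 0.26. The others lie much farther from the pair, from 854430 bases (Sox11) to 2073917 bases (Allc). None of the 6 tested neighbours was called at either time (lowest limma adjusted p 0.24). Of all tested genes 1.09% were called higher and 0.00935% lower at 2 h, and 0.654% higher and 3.35% lower at 8 h. The absence of calls among 6 genes is therefore no result.

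**Figure D4:**
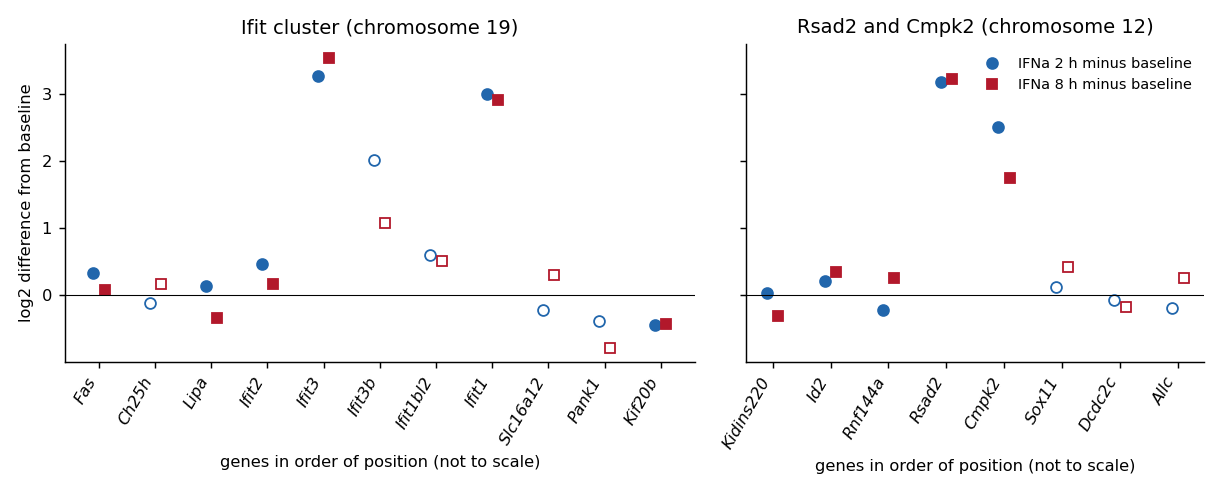
Log2 differences from baseline at 2 h (circles) and 8 h (squares) for the Ifit genes and for Rsad2 and Cmpk2, with the 3 nearest protein-coding genes on each side, in order of position and not to scale. Open symbols are rows below the filter, which were not tested. Ifit3, Ifit1, Rsad2 and Cmpk2 stand above 1 at both times, and so does the untested Ifit3b, whereas no flanking gene exceeds 0.42.

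Genes of like pattern were sought by the distance over 4 arrays between 3 log2 differences, namely baseline 2 minus baseline 1, 2 h minus baseline and 8 h minus baseline. Oasl2, of the oligoadenylate synthetase family, was nearest to Ifit1 (distance 0.11) and to Rsad2 (0.30), with 3.08 at 2 h and 2.95 at 8 h. Nearest to Ifit3 was Ifi208 (0.60), with 2.90 and 3.37, and then Oasl2 (0.62). Usp18, a brake on the type I interferon receptor, lay at 0.78 from Ifit3, 0.52 from Rsad2 and 0.52 from Ifit1, and Xaf1 at 0.55 from Ifit1. Among the 5 genes themselves Rsad2 lay 0.34 from Ifit3 and 0.35 from Ifit1, but 1.61 from its neighbour Cmpk2. Cmpk2 was closest to Parp12 (0.29), Eif2ak2 (0.31), the gene of the RNA-activated kinase PKR, and the RNA sensor gene Ifih1 (0.35). These 3 genes were picked for nearness to Cmpk2 in these same differences. Smaller values at 8 h than at 2 h therefore follow from the choice. The values at 2 h and 8 h were 2.72 and 1.58 for Parp12, 2.33 and 1.52 for Eif2ak2 and 2.43 and 1.63 for Ifih1. Ifit2 was closest to Myd88 (0.02), Abtb2 (0.04) and Oga (0.04), in a region of small differences where many genes lie near each other.

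A list of other interferon-induced antiviral effectors gives the setting. Of 26 tested, 14 rose at 2 h and 14 at 8 h, and none was called lower (12 and 10 rose with no filter). Of all tested genes 1.09% were called higher and 0.00935% lower at 2 h, and 0.654% higher and 3.35% lower at 8 h. Some of the 26, among them Rtp4, Oasl2, Mx2 and Oas2, were below the median of all rows on both baseline arrays. These passed the filter only through their IFNa arrays, so the counts and medians of the list are not taken as support. The median log2 difference of the 26 was 1.16 at 2 h and 0.96 at 8 h. The largest rises at 2 h were Rtp4 (4.14, SE 0.21), Oasl2 (3.08, SE 0.21), the dynamin-like GTPase gene Mx2 (2.95, SE 0.20) and Parp12 (2.72, SE 0.20), with limma adjusted p from 0.000281 to 0.000602. At 8 h Rtp4 (4.24), Oasl2 (2.95), Oas3 (2.41) and Oas2 (2.23) led. Ifit2, at 0.47 and 0.17, lay below the median of this list at both times, whereas Ifit1, Ifit3, Rsad2 and Cmpk2 lay above it.

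Of 15 tested genes of type I interferon signalling, 3 rose at 2 h and none fell, with a median of 0.23. Beside these, 1.09% of all tested genes were called higher and 0.00935% lower. Irf7, a transcription factor of the response (3.15, SE 0.25), Usp18 (3.22, SE 0.22) and Stat2 (1.42, SE 0.23, limma adjusted p = 0.0261) were called. The call of Stat2 was lost with no filter on dim rows (adjusted p = 0.0578). Irf9 stood at 1.04 (adjusted p = 0.0613). At 8 h Irf7 (3.23), Usp18 (3.02) and Irf9 (0.99, SE 0.20, adjusted p = 0.0388) rose, Socs1, an inhibitor of Janus kinases, fell by 1.06 (SE 0.23, adjusted p = 0.0452), and Stat2 stood at 0.88 (adjusted p = 0.0725). The calls of Irf9 and Socs1 were lost with no filter (limma adjusted p = 0.0843 and 0.097) and with the filter at the 60th percentile (0.0507 and 0.059). The median of the list at 8 h was 0.08, where 0.654% of all tested genes were called higher and 3.35% lower.

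Genes whose products work beside these proteins were also listed. Of 17 tested genes of RNA capping and translation initiation, which include the subunits of eIF3 that Ifit proteins bind, none was called at 2 h or 8 h against baseline, with medians of 0.21 and −0.35. The largest differences were those of the eIF3 subunit gene Eif3a at 2 h (0.59, limma adjusted p = 0.333) and at 8 h (−0.85, adjusted p = 0.0657). The 7 radical SAM enzymes other than viperin held no call at either time, with medians of 0.12 and −0.28 (Lias at 2 h 0.39, Mocs1 at 8 h 0.48). Rsad2, in contrast, stood above 3 at both times. Of all tested genes 1.09% were called higher and 0.00935% lower at 2 h, and 0.654% higher and 3.35% lower at 8 h. The absence of calls in lists of 17 and 7 genes is therefore no result.

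Of 28 tested genes of pyrimidine nucleotide metabolism, the pathway that makes cytidine triphosphate, none was called at 2 h (median 0.08, with Dctd at −0.71 and Uck1 at 0.65). At 8 h 3 fell, with a median of −0.32 over the list and of −0.16 over all tested genes. These were the cytidine triphosphate synthase gene Ctps (−1.48, SE 0.22, limma adjusted p = 0.0133), the deoxycytidylate deaminase gene Dctd (−1.38, SE 0.23, adjusted p = 0.0221) and Nme1 (−0.95, SE 0.21, adjusted p = 0.0461), a nucleoside diphosphate kinase. The call of Nme1 was lost with no filter (limma adjusted p = 0.0997) and with the filter at the 60th percentile (0.0576). At 8 h 3.35% of all tested genes were called lower. Cmpk1, the cytosolic counterpart of Cmpk2, stood at −0.12 at 2 h and −0.16 at 8 h. Among 11 tested viperin partners none was called at 2 h, where Traf6, a signalling adaptor, had the largest value (0.91, adjusted p = 0.18). At 8 h Fdps, a farnesyl diphosphate synthase of sterol synthesis that viperin is reported to bind, was the single call (−1.44, SE 0.26, limma adjusted p = 0.0264, and 0.0571 with no filter).

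**Figure D5:**
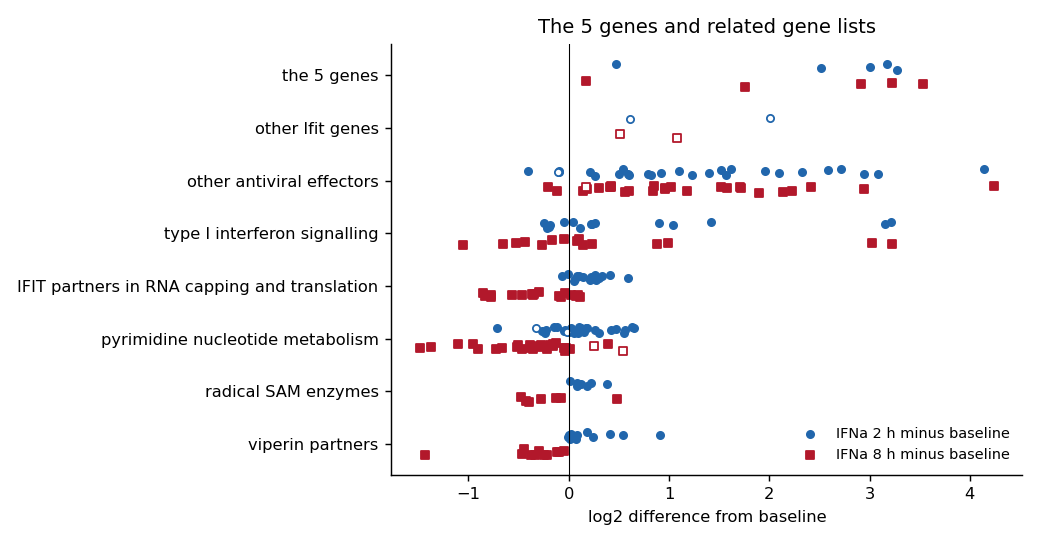
Log2 differences from baseline at 2 h (circles) and 8 h (squares) of the 5 genes and of the members of 7 related lists, 1 point per gene, with open symbols for rows below the filter. Points are spread vertically for display. Ifit1, Ifit3, Rsad2 and Cmpk2 lie among the higher antiviral effectors, and Ifit2 lies at 0.47 and 0.17.

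The medians of all rows were 195 and 183 before IFNa, 176 at 2 h and 199.5 at 8 h, but the distributions differed in width. The upper quartile was 669 and 730 before IFNa, 769 at 2 h and 573.5 at 8 h, and the lower quartile 81.8 and 70.1 before IFNa, 66.8 at 2 h and 87.8 at 8 h. The 8 h against 2 h values above that changed sign or call with the scaling are differences between the arrays farthest apart in these quartiles, and the number of arrays limits the precision. Defining T cell genes were bright, and all 11 with a row, Cd3e and Cd4 among them, lay above the median of all rows on every array. Their summed intensity was 44230 and 49770 before IFNa, 49800 at 2 h and 52830 at 8 h. Of 7 B cell markers with a row, 5 lay above the median on every array, with sums of 3041 and 3134 before IFNa, 3050 at 2 h and 3690 at 8 h, and the part of B cell RNA in the values of the 5 genes was not tested. Of the 7 macrophage and monocyte markers 2, Lyz2 and Cd68, were above the median, with sums of 1180 and 1010 before IFNa, 880 at 2 h and 999.5 at 8 h. The CD8 genes Cd8a and Cd8b1 summed to 1112 and 1001 before IFNa, 921 at 2 h and 1191 at 8 h. No neutrophil or erythroid marker of 5 lay above the median on all arrays. No marker of natural killer cells (5) or dendritic cells (6) exceeded the median on any array. In such bulk RNA, fewer cells of a type and less RNA per cell cannot be told apart.

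The response element core was also counted in the windows of all called genes, as a description. Among the 117 genes called higher at 2 h, 83 had a window. The core was held by 27 of these (32.5%), against 311 of 8607 tested genes with a window (3.61%). The other motifs searched were also more frequent there, GAAANNNGAAA at 6.02% against 2.37% and TTCNNNGAA at 14.5% against 8.23%. For the genes called higher at 8 h the shares were, in the same order, 39.6%, 11.3% and 7.55%. Of the 5 genes, Ifit1, Ifit3 and Rsad2 belong to the 27. Cmpk2 was called without the core in its window. For Ifit2 the core was absent from the windows at the 5′ edge of its span, and whether its array row reads a transcript that starts there was not tested.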

How the data were processed

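RNA of 4 samples was read on Affymetrix Mouse Gene 1.0 ST arrays. Per the submitters' processing notes, the deposited intensity values come from RMA and Affymetrix Power Tools, without versions; they are linear. The sources used here do not say which arrays were normalized together. Log2 of the deposited values was taken with no pseudocount. Of 24922 rows, 21425 carried 1 gene symbol, 1399 several and 2098 none; the highest-mean row stood for a gene. A gene had to exceed the median row of 1 array or more, which kept 10699. The test was limma 3.58.1 (R 4.3.3), two-sided, with group means, moderated by empirical Bayes; p was adjusted by Benjamini-Hochberg over these genes and the threshold was 0.05. Only the 2 baseline arrays inform the spread, with 1 residual degree of freedom, a prior of 7.46 degrees of freedom and a prior SD of 0.175. The rule for named genes took the 5 genes, their family, nearest neighbours and genes of like pattern, and up to 4 called genes of each list and comparison, or 2 as values where none was called. Members and lists were chosen with earlier results of these data known. Promoter windows are RefSeq's (GRCm38.p6).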

Additional observations from a re-analysis of the deposited data

Results flagged for a closer look

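None of Ifit1, Ifit2, Ifit3, Rsad2 and Cmpk2 had effects at 2 h and 8 h that differed by the test of the difference. Over the 6 related lists with tested genes, 14 of 104 tested genes (13.5%) were called lower at 8 h than at 2 h, beside 10.8% of all tested genes. The 13 genes given here were named partly because they were called in this comparison, so their number and common direction are no result (limma adjusted p from 0.00921 to 0.0482). Among genes of pyrimidine nucleotide metabolism the log2 difference of 8 h minus 2 h was −1.91 for Ctps, −1.37 for Umps, −1.22 for Dut and −1.22 for Nme1. Among genes of RNA capping and translation it was −1.44 for Eif3a, −1.11 for Rnmt, −1.08 for Cmtr2, −0.97 for Eif3b and −0.89 for Eif4e. Of the viperin partners Fdps stood at −1.62 and Traf6 at −1.37. The signalling inhibitor gene Socs1 stood at −1.32, and Parp12, the gene of a pattern most like that of Cmpk2, at −1.13. With no filter on dim rows the calls of Parp12, Socs1, Rnmt, Cmtr2, Eif3b, Dut and Traf6 were lost (adjusted p from 0.0506 to 0.0925). The call of Eif4e was not looked at under that setting.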

How the results depend on the processing

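At 2 h and 8 h against baseline, Ifit1, Ifit3, Rsad2 and Cmpk2 kept their direction and their call under 8 of the 9 alternatives with a test, and Ifit2 kept its direction with no call under all 9. The exception was the test of every row, which called none of the 5 (count 0 at each time): Ifit1 3.001 and 2.92, Ifit3 3.27 and 3.53, Rsad2 3.18 and 3.22, Cmpk2 2.52 and 1.76, with the values unchanged and the prior degrees of freedom at 3.51. For 8 h against 2 h, quantile normalization turned the sign of Ifit1 (0.17) and Ifit2 (0.13), centred arrays turned that of Rsad2 (−0.13), and Cmpk2 was called on centred arrays (−0.94) and at an adjusted p under 0.1 (−0.76), a count of 1 in each. None of these sign changes was a call. Without 1 baseline array, a value with no test, the differences at 2 h and 8 h ran from 2.91 to 3.09 and 2.83 to 3.005 for Ifit1, 0.46 to 0.48 and 0.16 to 0.18 for Ifit2, 3.12 to 3.42 and 3.38 to 3.68 for Ifit3, 3.08 to 3.27 and 3.13 to 3.32 for Rsad2, and 2.47 to 2.56 and 1.71 to 1.80 for Cmpk2; 4 genes stayed at least 2-fold higher at both times, a count chosen after seeing the data. Counts over all genes moved more: at 2 h 117 higher and 1 lower became 332 and 109 after quantile normalization, 291 and 7 on centred arrays, 181 and 7 at an adjusted p under 0.1, and 84 and 0 with no filter, and 3 were lower with an intensity trend. At 8 h 70 higher and 358 lower became 663 and 900, 70 and 724, 143 and 888, and 42 and 101, and 203 were lower with the filter at the 60th percentile. For 8 h against 2 h, 156 higher and 1155 lower became 990 and 1316, 72 and 2315, 678 and 2321, and 20 and 395, and 62 were higher with that filter; the test of every row called 0 throughout (unadjusted p under 0.05 in 1141, 2883 and 4971 rows). The median of all tested genes moved from 0.06, −0.16 and −0.25 to −0.01, −0.00 and 0.00 after quantile normalization and to 0.16, −0.24 and −0.43 on centred arrays. Of 31 calls of named list genes, 278 values under alternatives kept their direction and 48 lost the call, 31 of them in the test of every row. Of 324 counts over gene lists 276 stayed within 1.5 times or at 0 and 48 did not. The 276 include counts that were 0 in both settings, as many list counts were, and these say little about stability. The cause of these shifts was not tested. No paired analysis was possible because the labels give no pairing of samples and each IFNa time had 1 array.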
